A study of Homo sapiens with 12 samples.

Results

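The 46 genes described here encode the core machinery that copies DNA in human cells and were chosen by name for their known roles. They fall into 8 roles: origin licensing, the MCM helicase, helicase activation, the polymerases, the sliding clamp with its loader, single-strand binding, Okazaki fragment processing and nucleotide supply. All 46 were found among the 67049 gene identifiers of each count file, all 46 had reads in every library, and all 46 passed the filter on low counts that left 20394 genes for testing, 13901 of them protein-coding. The RNA came from nuclei and from cytoplasm of HEK293T, an established human embryonic kidney line, at 48 h after transient transfection by Lipofectamine 2000. The plasmid was pIRES2-SF3B1, WT for wild type or K700E. SF3B1 belongs to the U2 snRNP, which recognises the branch point of introns. K700E is a substitution that recurs in blood cancers. The 4 groups, each with 3 libraries, are nuclear RNA with WT, cytoplasmic RNA with WT, nuclear RNA with K700E and cytoplasmic RNA with K700E. All 4 received an SF3B1 plasmid and carry the endogenous SF3B1 gene as well, and no untransfected cells are among the groups used here. The labels do not tie the libraries of a group to separate cultures. All p-values given here therefore describe the spread between these libraries, and that spread may be technical.

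Replication starts when the origin recognition complex, with CDC6 and CDT1, loads the ring-shaped MCM helicase onto DNA in G1. In S phase CDC45 and the GINS complex join the ring and turn it into an active helicase. Polymerase alpha with primase then lays primers, and polymerases epsilon and delta extend the leading and the lagging strand, held to DNA by the clamp PCNA, which the RFC complex loads. The genes of this machinery are classic targets of E2F transcription factors, whose activity rises as cells leave G1, and HEK293T is a fast-cycling line that also carries a viral oncoprotein known to release E2F. Messenger RNAs of these genes are spliced in the nucleus and translated in the cytoplasm, so the ratio of cytoplasmic to nuclear level describes where a message was found.

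The promoters are shown first because the genes of this machinery are classic targets of E2F factors. RefSeq promoter windows on GRCh38.p14, which run from 250 bases before to 50 bases after an annotated start, were on hand for 40 of the 46 genes, 52 windows in all. MCM4, MCM5, GINS4, POLD3, RPA2 and RPA3 had none. The letters searched for as E2F sites were TTTGGCGC, TTTGCCGC, TTTCGCGC and TTTCCCGC on either strand. They occurred in 20 of the 52 windows (38.5%) and in 3.31% of the 35116 windows of the whole table, and by gene in 20 of 40 replication genes and in 3.99% of all genes with a window. CCAAT, on either strand, stood in 55.8% of the replication windows and 34.6% of all windows. Matches to the E2F letters can overlap one another, and such a match describes the sequence and not the binding of a factor. The windows below are read 5′ to 3′ on the strand of the gene, with E2F matches in capitals on whichever strand they occur. MCM6 (chr2:135876394-135876693, minus strand), a helicase subunit, holds 4 matches in 2 overlapping pairs. CDC6 (chr17:40287629-40287928, plus strand), the licensing ATPase, has its match 8 bases after the start. POLE (chr12:132687293-132687592, minus strand) and POLA2 (chr11:65261712-65262011, plus strand) encode polymerase subunits, and their matches lie 18 and 53 bases before the start.
MCM6: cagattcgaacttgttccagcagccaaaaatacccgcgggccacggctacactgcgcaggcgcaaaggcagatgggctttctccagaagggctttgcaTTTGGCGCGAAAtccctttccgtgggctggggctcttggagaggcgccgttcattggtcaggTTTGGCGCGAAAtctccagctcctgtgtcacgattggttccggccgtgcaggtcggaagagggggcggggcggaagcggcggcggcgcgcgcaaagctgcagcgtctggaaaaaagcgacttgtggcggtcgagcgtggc
CDC6: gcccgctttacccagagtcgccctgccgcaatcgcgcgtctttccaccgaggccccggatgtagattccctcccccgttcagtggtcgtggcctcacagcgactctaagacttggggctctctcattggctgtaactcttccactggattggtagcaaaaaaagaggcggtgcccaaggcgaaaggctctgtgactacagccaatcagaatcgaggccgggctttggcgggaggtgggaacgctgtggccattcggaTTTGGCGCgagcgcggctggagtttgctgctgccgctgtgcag
POLE: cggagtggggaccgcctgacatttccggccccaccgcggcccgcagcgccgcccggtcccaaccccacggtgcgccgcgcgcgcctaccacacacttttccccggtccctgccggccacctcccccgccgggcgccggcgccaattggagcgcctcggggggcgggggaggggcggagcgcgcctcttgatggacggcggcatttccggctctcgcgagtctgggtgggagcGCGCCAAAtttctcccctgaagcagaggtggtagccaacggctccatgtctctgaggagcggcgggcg
POLA2: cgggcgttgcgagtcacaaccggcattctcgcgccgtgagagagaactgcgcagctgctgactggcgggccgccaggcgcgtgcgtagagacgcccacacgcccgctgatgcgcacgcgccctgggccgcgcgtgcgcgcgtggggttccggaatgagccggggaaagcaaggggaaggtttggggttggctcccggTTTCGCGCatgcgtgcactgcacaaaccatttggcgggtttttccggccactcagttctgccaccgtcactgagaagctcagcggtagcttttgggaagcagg
The first pair was more abundant in the cytoplasm and the second pair more abundant in the nucleus, as described below. The E2F letters stood in both kinds of promoter. They were found in 11 of 23 genes with a window that were higher in the cytoplasm with both constructs, in 4 of 5 that were lower with both (POLA2, POLE, POLE2 and LIG1, not RFC4), and in 5 of the 12 others.

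Libraries held 9086743 to 11200562 counts in the nucleus and 13422598 to 18116929 in the cytoplasm, and the replication genes took 0.581% to 0.726% of the nuclear and 0.777% to 0.895% of the cytoplasmic counts. Levels are in CPM, counts set to a common library total and scaled by TMM, and the lowest raw count behind any value was 17, for POLE4. The 13 mitochondrially encoded mRNAs summed to 904.7 to 1241 CPM in nuclear and 4462 to 18740 in cytoplasmic libraries. A list of 10 long non-coding RNAs, picked as nuclear or nucleus-associated, summed to 3711 to 11050 against 765.1 to 955. The list held MALAT1, NEAT1, KCNQ1OT1, MEG3, FTX, TUG1, PVT1, OIP5-AS1, JPX and NORAD. Of these 10 RNAs 9 were tested, and they did not all go the same way. With WT 6 were lower in the cytoplasm and 1 higher, against 40.0% and 27.1% of all genes. With K700E 5 were lower and 1 higher, against 37.9% and 28.1%. SF3B1 itself stood at 1021 to 2473 CPM in nuclear and 6900 to 10050 in cytoplasmic libraries, and gene counts do not part plasmid from endogenous message. All 8 markers used for HEK293T cells were expressed, VIM, KRT8, KRT18 and LIN28B among them, summing to 286.4 to 1300 CPM. Of 8 markers of other cell types, 3 passed the filter and the sum was 17.4 to 134.5 CPM. The highest sum was that of replicate 2 of the WT nucleus, where the HEK293T markers summed to 286.4 CPM. Departures of a library from the mean of its fraction followed the GC content of transcripts to varying degrees (Spearman correlation over 10971 protein-coding genes). The strongest trend of each group was that of replicate 2 of the WT nucleus (0.749), replicate 2 of the K700E nucleus (-0.747), replicate 3 of the WT cytoplasm (0.614) and replicate 3 of the K700E cytoplasm (0.761). Trends were also seen in replicates 1 (-0.451) and 2 (-0.637) of the K700E cytoplasm and in replicate 2 of the WT cytoplasm (-0.435), and the other 5 libraries ran from -0.173 to 0.051. The ratio of fractions compares shares of the RNA sequenced in each fraction, not molecules per cell, and in bulk RNA fewer cells with a message cannot be told apart from less of it per cell.

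With WT SF3B1 most replication mRNAs were more abundant in the cytoplasm than in the nucleus, and a small set that includes the catalytic subunit of polymerase epsilon and the ligase of the lagging strand was more abundant in the nucleus. Of the 46 genes, 30 were higher in the cytoplasm, 5 were lower and 11 did not pass (edgeR quasi-likelihood test, adjusted p under 0.05). Among all genes tested 27.1% were higher and 40.0% lower, and among protein-coding genes 35.4% and 29.5%. The median log2 ratio was 1.10 over the 46 genes, -0.40 over all genes and 0.13 over protein-coding genes. With K700E SF3B1 29 were higher and 7 lower, where the shares were 28.1% and 37.9% of all genes and 36.5% and 27.4% of protein-coding genes, and the medians were 1.04, -0.29 and 0.19. Estimates were above 0 for 36 of the 46 genes with WT and 35 with K700E, against 42.4% and 44.1% of all genes. The 3 libraries of each fraction did not overlap for 30 higher and 5 lower genes with WT (29.7% and 40.4% of all genes) and for 29 higher and 7 lower with K700E (30.2% and 40.4%). Scaled by library size alone, the median of all genes moved by -0.51 with WT and -0.41 with K700E, and the replication genes then split into 25 higher and 10 lower with WT and 26 and 9 with K700E. All genes split into 3789 higher and 10246 lower on that scale with WT and 4225 and 9448 with K700E, against 5517 and 8164 and against 5723 and 7725 with TMM. Of the 28 genes higher with both constructs, 23 kept that call under each of 24 alternative settings, the 12 fits without 1 library among them, and of the 5 lower with both, 4 did.

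**Figure D1:**
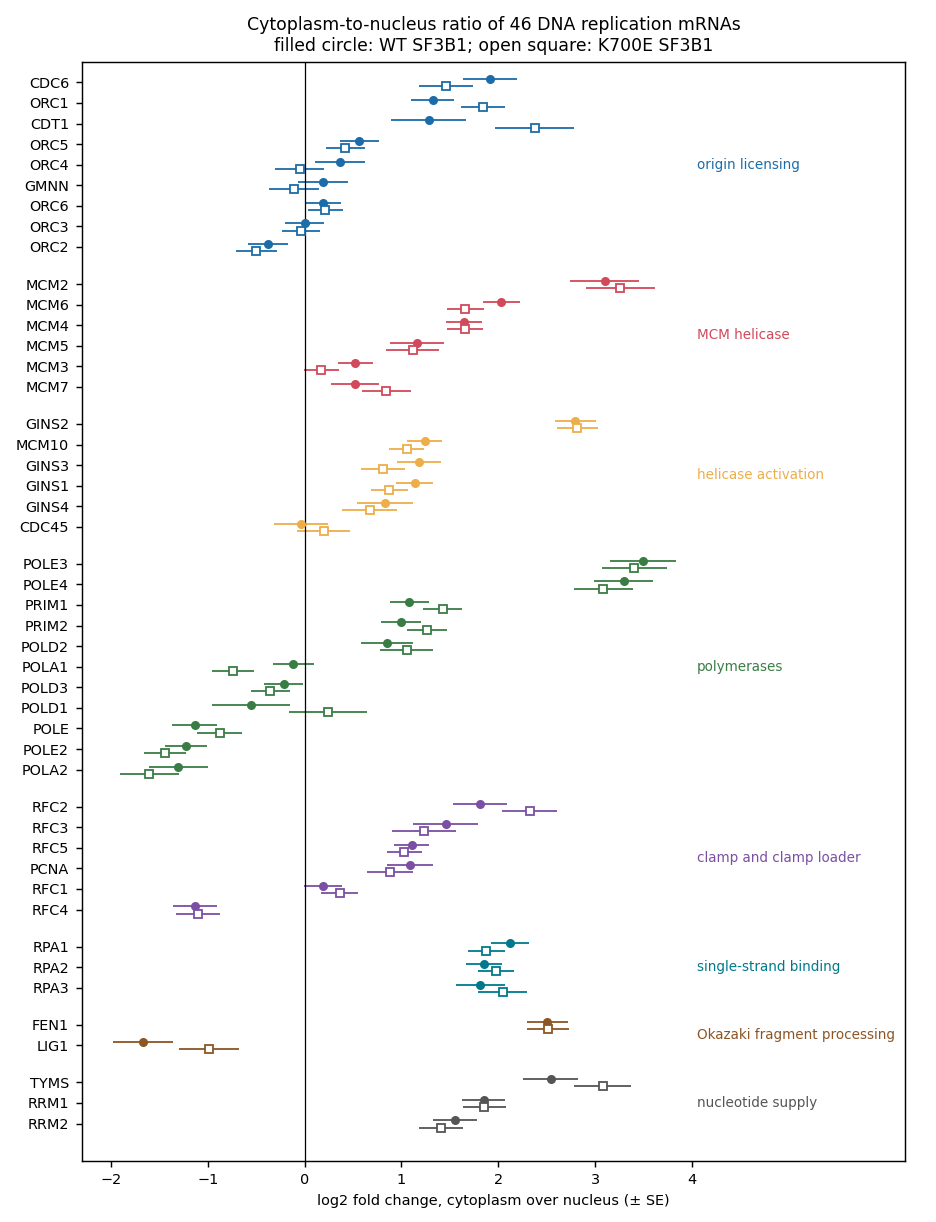
Log2 ratio of cytoplasm over nucleus (horizontal axis, ± SE) for the 46 genes grouped by role and ordered by the WT ratio, with WT as filled circles and K700E as open squares. Single-strand binding and nucleotide supply lie wholly to the right of 0, the polymerases run from -1.30 (POLA2) to 3.49 (POLE3) with WT, and the MCM2 to MCM7 genes, right of 0 here, reach 0 for MCM7 when library size alone is used.

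CDC6, CDT1 and ORC1 were higher in the cytoplasm with both constructs, and the other genes of origin licensing lay closer to 0. CDC6, which loads the helicase, stood at 80.0, 114 and 70.8 CPM in the WT nucleus and 322, 321 and 356 in the WT cytoplasm. With K700E it stood at 70.0, 157 and 74.9 CPM in the nucleus and 285, 267 and 280 in the cytoplasm. Every cytoplasmic library was above every nuclear one, and CDC6 was 3.77-fold higher in the WT cytoplasm (log2 1.91 ± 0.28 SE, edgeR adjusted p = 2.26e-05). CDT1, the partner of CDC6 in loading, read 67.1, 186 and 61.2 CPM in the WT nucleus against 210, 205 and 348 in the cytoplasm, and with K700E 64.3, 67.3 and 43.8 against 280, 191 and 440. The fractions did not overlap with either construct, and replicate 2 of the WT nucleus was the nuclear library that stood apart. The log2 ratio of CDT1 was 1.28 ± 0.39 with WT (adjusted p = 0.00859) and 2.38 ± 0.41 with K700E (adjusted p = 9.51e-05), and the WT call ended with library size alone (0.74, adjusted p = 0.102). ORC1, the largest ORC subunit, was at 37.9, 61.3 and 40.8 CPM in the WT nucleus against 128, 108 and 115 in the cytoplasm, and with K700E at 35.3, 26.9 and 38.6 against 119, 119 and 125. It was higher in the cytoplasm with both constructs (1.32 ± 0.22 and 1.85 ± 0.23).

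The other ORC subunits, which hold the complex on DNA, stood closer to 0. ORC2 was at 151, 96.4 and 167 CPM in the WT nucleus against 104, 112 and 103 in the cytoplasm, and at 146, 148 and 153 against 114, 106 and 97.1 with K700E. Its fractions overlapped with WT and not with K700E. The log2 ratio was -0.38 ± 0.21 with WT (adjusted p = 0.117) and -0.50 ± 0.21 with K700E (adjusted p = 0.0456), and the K700E call ended in 11 of the 12 fits that left out 1 library. Without the library of strongest GC trend in each group ORC2 stood at -0.43 with WT (adjusted p = 0.0425) and -0.35 with K700E (adjusted p = 0.0924). ORC5 was higher with WT (0.57 ± 0.20, adjusted p = 0.0217), a call that ended without replicate 1 of the WT cytoplasm (adjusted p = 0.0527) or without replicate 2 (adjusted p = 0.0515), and with library size alone, where it was 0.05 (adjusted p = 0.826). Of 24 alternative settings, 15 ended the K700E call of ORC2 and 6 the WT call of ORC5. Neither call came with the other construct. ORC3 (0.00 ± 0.20), ORC4 (0.36 ± 0.26) and ORC6 (0.19 ± 0.18) did not pass with WT, nor did GMNN (0.19 ± 0.26), which encodes geminin, the inhibitor of CDT1.

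All subunits of the MCM helicase had positive ratios with both constructs, and 5 of 6 passed with each, MCM3 failing with K700E and MCM7 with WT. MCM2 had 51.7, 38.1 and 28.1 CPM in the WT nucleus and 288, 250 and 472 in the WT cytoplasm. With K700E the values were 37.5, 22.3 and 37.7 CPM against 224, 239 and 473. The fractions lay far apart, with replicate 3 of both cytoplasms the highest, and the log2 ratio was 3.10 ± 0.35 with WT (8.56-fold, adjusted p = 1.69e-06) and 3.26 ± 0.36 with K700E. An antisense gene covers 22.7% of the exonic bases of MCM2, and whether counting used the strand is not given in the sources used here. MCM6 was at 110, 104 and 97.0 CPM in the WT nucleus against 458, 404 and 410 in the cytoplasm, and with K700E at 104, 131 and 103 against 318, 378 and 372. No libraries of MCM6 overlapped between fractions, and its ratio was 2.03 ± 0.19 with WT and 1.66 ± 0.19 with K700E. MCM4 (1.65 ± 0.19) and MCM5 (1.16 ± 0.28) were higher with WT and had 1.65 ± 0.19 and 1.11 ± 0.28 with K700E.

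MCM7 and MCM3, the most abundant subunits per length with WT, had the smallest ratios. MCM7 was at 467, 664 and 442 CPM in the WT nucleus against 706, 655 and 897 in the cytoplasm, and with K700E at 405, 266 and 382 against 486, 568 and 833. The WT fractions overlapped through replicate 2 of the nucleus, the K700E fractions did not. Its ratio was 0.52 ± 0.25 with WT (adjusted p = 0.0771) and 0.84 ± 0.25 with K700E (adjusted p = 0.00791). With library size alone the WT value of MCM7 was -0.0007, and without replicate 2 of the WT nucleus it was 0.77 (adjusted p = 0.0165), and without the library of strongest GC trend in each group 0.71 (adjusted p = 0.00475). The K700E call of MCM7 ended with library size alone (0.41, adjusted p = 0.172). MCM3 passed with WT (0.52 ± 0.18, adjusted p = 0.0167) but lost its call without replicate 3 of the WT cytoplasm (adjusted p = 0.062) and with library size alone (0.01, adjusted p = 0.958). The WT call of MCM3 ended under 6 of 24 alternative settings, and MCM3 stood at 0.17 ± 0.18 with K700E (adjusted p = 0.408).

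Helicase activators were higher in the cytoplasm apart from CDC45. GINS2, a subunit of the GINS complex, had 19.8, 24.9 and 16.2 CPM in the WT nucleus and 132, 145 and 147 in the WT cytoplasm, and 18.3, 18.9 and 16.2 against 122, 124 and 130 with K700E. Fractions were clearly separate and replicates close, and GINS2 had the smallest adjusted p of the 46 genes in both fraction comparisons (2.80 ± 0.21, adjusted p = 4.55e-08, and 2.81 ± 0.21, adjusted p = 4.14e-08). CDC45, which bridges helicase and GINS, was at 109, 241 and 136 CPM in the WT nucleus against 134, 145 and 194 in the cytoplasm, and at 108, 120 and 136 against 109, 134 and 173 with K700E. These fractions overlapped, and the ratios of -0.04 ± 0.27 with WT (adjusted p = 0.91) and 0.20 ± 0.27 with K700E (adjusted p = 0.544) did not pass. The other GINS subunits and MCM10, which helps the helicase start, were higher with both constructs: GINS1 at 1.14 ± 0.19 and 0.87 ± 0.19, GINS3 at 1.18 ± 0.23 and 0.81 ± 0.23, GINS4 at 0.83 ± 0.29 and 0.67 ± 0.29, and MCM10 at 1.24 ± 0.18 and 1.06 ± 0.18. The K700E call of GINS4 (adjusted p = 0.0493) ended in 8 of 12 fits that left out 1 library, and its WT call ended without replicate 3 of the WT cytoplasm (adjusted p = 0.0576) and with library size alone (0.31, adjusted p = 0.375). Without the library of strongest GC trend in each group GINS4 was at 0.73 with WT (adjusted p = 0.0603) and 0.48 with K700E (adjusted p = 0.195). An antisense gene, AC009630.2, covers 21.2% of the exonic bases of GINS4. The K700E call of GINS3 ended with library size alone (0.38, adjusted p = 0.153).

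Polymerase subunits showed the widest spread of all roles, with 5 of 11 higher and 3 lower with WT. The 2 small histone-fold subunits of polymerase epsilon had the highest ratios of the whole set with WT. POLE3 had 41.0, 16 and 18.3 CPM in the WT nucleus and 280, 291 and 278 in the WT cytoplasm, against 31.2, 14.7 and 21.0 and 232, 248.9 and 229 with K700E. POLE4 had 3.59, 3.24 and 2.81 CPM in the WT nucleus and 26.4, 34.4 and 34.2 in the cytoplasm, and 3.03, 3.02 and 1.48 against 18.9, 21.9 and 23.4 with K700E. Nuclear levels of both were a small share of the cytoplasmic ones in every library. The ratio of POLE3 was 3.49 ± 0.34 with WT (11.3-fold, adjusted p = 3.46e-07) and 3.41 ± 0.34 with K700E, and that of POLE4 3.29 ± 0.30 and 3.08 ± 0.30.

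The catalytic subunit of the same enzyme and its second subunit went the other way. POLE (ENSG00000177084.18, chr12:132623753-132687365) had 322, 513 and 389 CPM in the WT nucleus and 197, 164 and 197 in the WT cytoplasm, and with K700E 308, 235 and 363 against 135, 162 and 197. POLE2 (ENSG00000100479.13, chr14:49643555-49688422) had 77.7, 103 and 118 CPM in the WT nucleus and 40.0, 43.5 and 44.3 in the WT cytoplasm, and with K700E 77.3, 110 and 107 against 35.4, 40.4 and 32.5. All nuclear libraries of both genes exceeded all cytoplasmic ones of the same construct. The log2 ratio of POLE was -1.13 ± 0.23 with WT (adjusted p = 0.000498) and -0.88 ± 0.23 with K700E (adjusted p = 0.00348), and that of POLE2 was -1.23 ± 0.22 (adjusted p = 0.000133) and -1.44 ± 0.22 (adjusted p = 3.12e-05). The 4 subunits of 1 enzyme covered most of the range of ratios measured over the 46 genes.

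Polymerase alpha with primase split the same way between its subunits. POLA2, the accessory subunit (ENSG00000014138.9, chr11:65261762-65305589), had 36.0, 63.3 and 47.3 CPM in the WT nucleus and 18.7, 15.4 and 25.2 in the WT cytoplasm, and with K700E 49.8, 62.8 and 51.1 against 12.2, 15 and 26.6. Nuclear libraries were higher throughout, and the ratio was -1.30 ± 0.30 with WT (adjusted p = 0.00125) and -1.60 ± 0.30 with K700E (adjusted p = 0.000249). Another protein-coding gene annotated on the same strand, AP000944.2, covers 35.1% of the exonic bases of POLA2, so reads that both genes could give make the counts of POLA2 uncertain. The primase subunits PRIM1 (1.08 ± 0.20) and PRIM2 (1.00 ± 0.21) were higher in the WT cytoplasm and also with K700E (1.43 ± 0.20 and 1.26 ± 0.21). AC117378.1, a protein-coding gene annotated on the same strand, covers 14.9% of the exonic bases of PRIM1, which makes its counts uncertain as well.

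POLA1, the catalytic subunit of polymerase alpha, had 160, 162 and 190 CPM in the WT nucleus and 156, 162 and 155 in the cytoplasm, and with K700E 188, 334 and 257 against 157, 171 and 138. The WT fractions overlapped and the K700E nuclear libraries all lay above the cytoplasmic ones, replicate 2 furthest. The ratio was -0.12 ± 0.21 with WT (adjusted p = 0.643) and -0.74 ± 0.21 with K700E (adjusted p = 0.00624), and without the library of strongest GC trend in each group the K700E value was -0.34 (adjusted p = 0.154). Of polymerase delta, POLD2 was higher with both constructs (0.85 ± 0.27 and 1.05 ± 0.27), the WT call ending without replicate 3 of the WT cytoplasm (adjusted p = 0.0657) and with library size alone (0.33, adjusted p = 0.285). The catalytic POLD1 (-0.56 ± 0.40 and 0.24 ± 0.40) and POLD3 (-0.22 ± 0.20 and -0.35 ± 0.20) did not pass with either.

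The clamp and most of its loader were higher in the cytoplasm, and 1 loader subunit was lower. PCNA, the sliding clamp, had 233, 267 and 195 CPM in the WT nucleus and 458, 494 and 525 in the WT cytoplasm, and with K700E 208, 352 and 176 against 449, 447 and 457. Every cytoplasmic library exceeded every nuclear one, with ratios of 1.09 ± 0.24 (adjusted p = 0.000846) and 0.88 ± 0.24 (adjusted p = 0.00407), the latter 0.51 with upper quartile factors (adjusted p = 0.0611). RFC2, a small loader subunit, had 39.1, 95.6 and 47.7 CPM in the WT nucleus and 201, 200 and 240.1 in the cytoplasm, and with K700E 40.2, 38.5 and 44.4 against 192, 183 and 242. Its fractions were far apart, replicate 2 of the WT nucleus being the closest, and the ratios were 1.81 ± 0.28 and 2.33 ± 0.28. RFC4 (ENSG00000163918.12, chr3:186789880-186807058), another small subunit of the same ring, had 219, 162 and 220.4 CPM in the WT nucleus and 86.1, 96.1 and 93.0 in the cytoplasm, and with K700E 213, 238 and 256 against 147, 99.1 and 84.3. For RFC4 all nuclear libraries were the higher ones, with ratios of -1.13 ± 0.22 (adjusted p = 0.000365) and -1.10 ± 0.22 (adjusted p = 0.000469). RFC3 (1.46 ± 0.33 and 1.23 ± 0.33) and RFC5 (1.11 ± 0.18 and 1.03 ± 0.18) were higher with both constructs.

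RFC1, the large loader subunit, did not pass with either construct. It had 203, 169 and 173 CPM in the WT nucleus and 203, 216 and 203 in the cytoplasm, and with K700E 196, 230 and 191 against 312, 261 and 221. The fractions overlapped with both constructs, at 0.19 ± 0.19 (adjusted p = 0.394) and 0.36 ± 0.19 (adjusted p = 0.106). Its WT sign turned with library size alone (-0.32), and the K700E value passed without replicate 3 of the K700E cytoplasm (0.52, adjusted p = 0.0466) and without the library of strongest GC trend in each group (0.66, adjusted p = 0.00691).

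The 3 subunits of RPA, which coats single-stranded DNA, had nearly equal ratios. RPA1 had 67.6, 58.9 and 79.0 CPM in the WT nucleus and 331, 288 and 274 in the cytoplasm, and with K700E 70.3, 75.8 and 73.8 against 245, 294 and 269. RPA3 had 35.7, 28.7 and 23.4 CPM in the WT nucleus and 98.3, 122 and 88.6 in the cytoplasm, and with K700E 23.3, 29.2 and 16.8 against 106, 103 and 77.7. No fraction overlapped the other. Ratios with WT were 2.12 ± 0.20 for RPA1, 1.85 ± 0.18 for RPA2 and 1.82 ± 0.25 for RPA3, which differ by less than 2 standard errors of any of them, and with K700E they were 1.88 ± 0.19, 1.98 ± 0.19 and 2.04 ± 0.25.

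The enzymes that finish Okazaki fragments lay at opposite ends. FEN1, the flap nuclease, had 42.2, 46 and 34.1 CPM in the WT nucleus and 235, 200 and 260 in the cytoplasm, and with K700E 34.2, 33.1 and 24.8 against 174, 166 and 187. LIG1, the ligase that seals the nick FEN1 leaves (ENSG00000105486.14, chr19:48115445-48170603), had 132, 299.9 and 156 CPM in the WT nucleus and 52.5, 51.0 and 81.3 in the cytoplasm, and with K700E 131, 104 and 160 against 57.3, 55.1 and 87.1. FEN1 was higher in every cytoplasmic library and LIG1 in every nuclear one, with replicate 2 of the WT nucleus the highest for LIG1. The ratio of FEN1 was 2.51 ± 0.21 with WT (5.68-fold, adjusted p = 1.14e-07) and 2.52 ± 0.21 with K700E. That of LIG1 was -1.67 ± 0.31 with WT (3.18-fold lower in the cytoplasm, adjusted p = 0.000206) and -0.99 ± 0.31 with K700E (adjusted p = 0.00957), and the latter call ended without replicate 3 of the K700E nucleus (-0.78, adjusted p = 0.0554).

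Genes of nucleotide supply were all higher in the cytoplasm. TYMS, thymidylate synthase, had 7.11, 10.3 and 5.45 CPM in the WT nucleus and 45.3, 38.6 and 49.7 in the cytoplasm, and with K700E 4.94, 3.96 and 5.13 against 28.5, 43.6 and 46.5. RRM2, the regulated subunit of ribonucleotide reductase, had 85.3, 118 and 141 CPM in the WT nucleus and 327, 357 and 331 in the cytoplasm, and with K700E 88.5, 122 and 145 against 310.2, 330.4 and 303. Both had fractions without overlap. Ratios were 2.54 ± 0.28 and 3.08 ± 0.29 for TYMS, 1.56 ± 0.23 and 1.41 ± 0.23 for RRM2, and 1.85 ± 0.22 and 1.86 ± 0.22 for RRM1, the catalytic subunit. AC007240.1, another protein-coding gene annotated on the same strand, covers 20.2% of the exonic bases of RRM2. ENOSF1, on the opposite strand, covers 39.1% of the exonic bases of TYMS. Pseudogenes named after RRM2 (3), TYMS (2), PCNA (3), RPA2 (3), POLD2, RFC3, RFC5 and FEN1 (1 each) are also annotated. Reads shared with any of these genes and pseudogenes are uncertain.

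**Figure D2:**
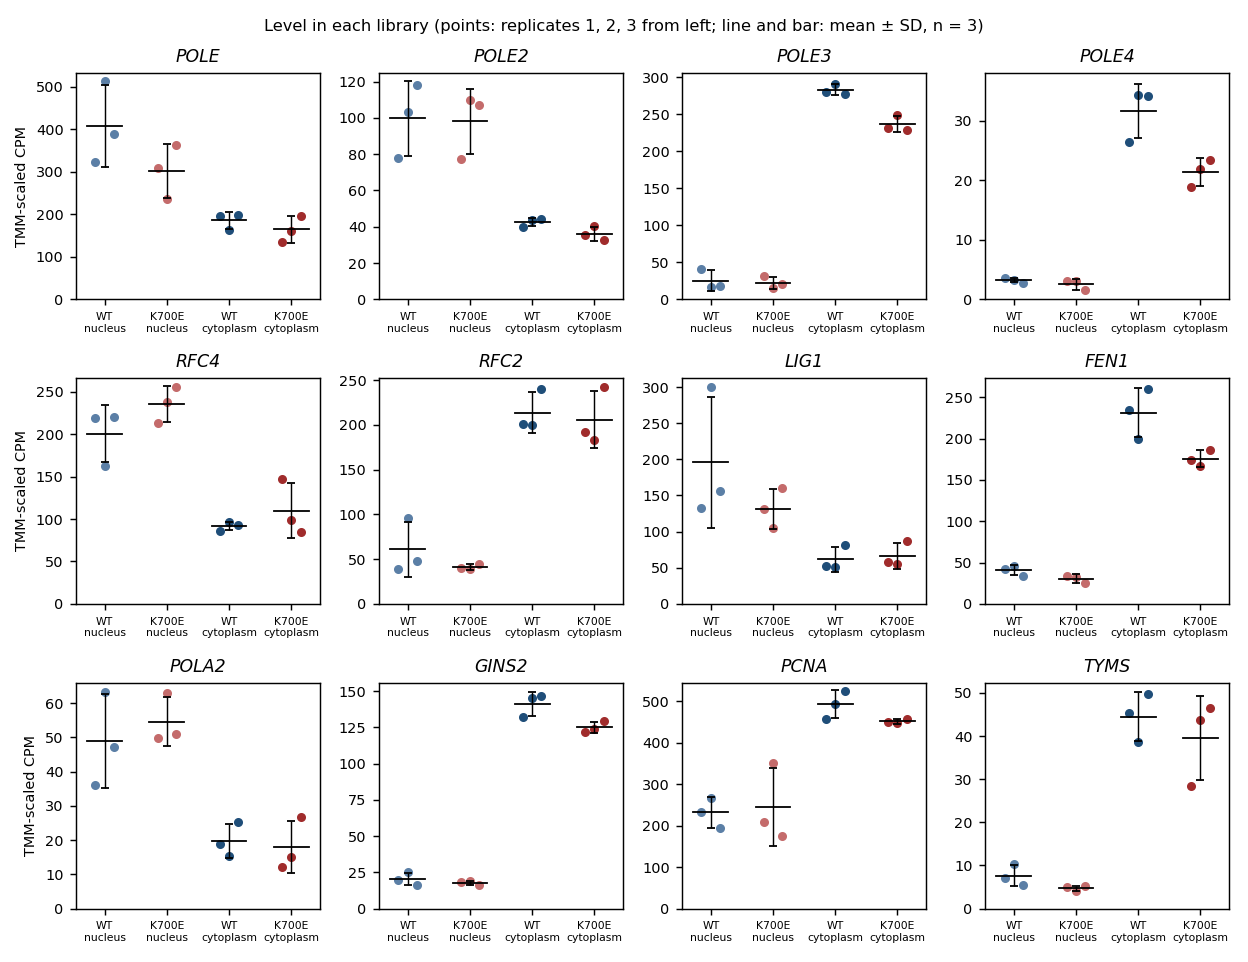
TMM-scaled CPM (vertical axis, from 0) of 12 replication genes in each of the 12 libraries, by group, with replicates 1, 2 and 3 from left to right and the mean ± SD of 3 libraries. POLE, POLE2, RFC4, LIG1 and POLA2 are higher in both nuclear groups, and POLE3, POLE4, RFC2, FEN1, GINS2, PCNA and TYMS in both cytoplasmic groups.

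The split of the 46 genes was much alike with WT and K700E. The 2 comparisons use different libraries but come from 1 fit with a shared estimate of spread, so their calls are not independent. With both constructs 28 genes were higher and 5 lower, against 24.1% and 34.5% of all genes. No gene passed in opposite directions, and 8 passed with neither. ORC5 and MCM3 were higher with WT alone, MCM7 was higher with K700E alone, and ORC2 and POLA1 were lower with K700E alone. None of those 5 differences between constructs passed a test of the difference itself, which is given below. Over the 46 genes the ratios of the 2 constructs had a Pearson correlation of 0.962 and a Spearman correlation of 0.954, a description over genes measured in shared libraries. The ratios lay within 0.5 log2 of each other for 39 genes, and the largest gap was 1.10 for CDT1. These values were not computed over all genes, so whether the likeness is particular to the replication genes was not tested.

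**Figure D3:**
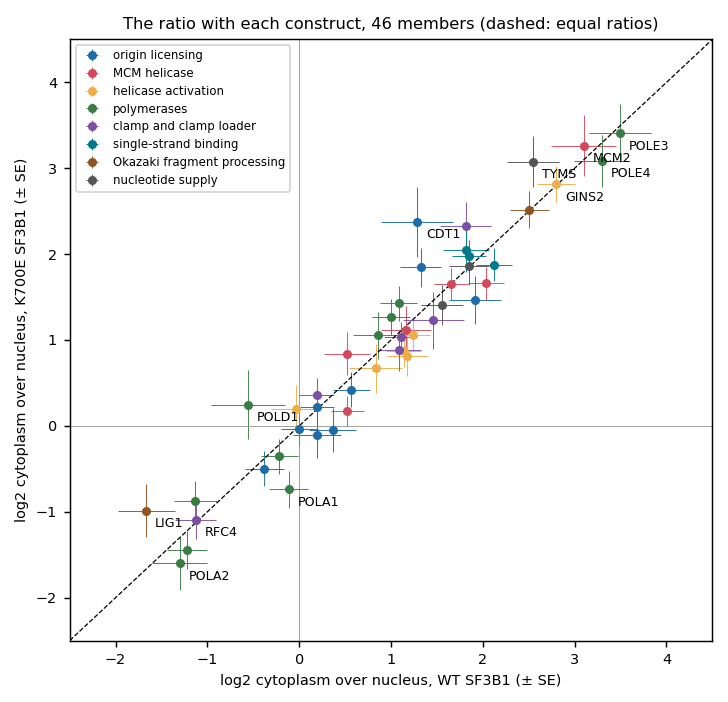
Log2 ratio of cytoplasm over nucleus with WT (horizontal) and with K700E (vertical) for the 46 genes, each ± SE and coloured by role, with a dashed line of equal ratios. Most points follow the line, and CDT1 lies furthest from it at 1.28 with WT and 2.38 with K700E.

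Levels per transcript length were compared as RPKM, which is the CPM of a gene divided by its exon length in kilobases. In the WT cytoplasm PCNA was the most abundant at 335 ± 22.9 RPKM (SD, n = 3), followed by MCM7 at 172, RPA2 at 152, MCM3 at 116 and POLE3 at 109. At the low end stood POLE at 11.2, LIG1 at 9.36 and POLA2 at 3.45. In the WT nucleus PCNA (157 ± 24.7) and MCM7 (120 ± 27.7) again led and were within their spread of each other, then MCM3 at 80.8, GMNN at 71.7 and RFC4 at 67.0, while TYMS at 3.09 and POLE4 at 1.49 closed the list. RFC4, LIG1, POLE and POLE2, all lower in the cytoplasm, therefore ranked higher among nuclear than among cytoplasmic messages: LIG1 had 29.8 RPKM in the WT nucleus, next to RRM1 at 29.8, and 9.36 against 107 in the cytoplasm. The values differ with the annotated length used, the union of the exons of GENCODE 29.

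Exon number went along with the ratio. The 28 genes higher in the cytoplasm with both constructs had a median of 10.5 exons in the longest coding transcript (2 to 19), the 5 lower ones had 18 (11 to 49), and the 13 others had 17. Genomic spans had medians of 21869, 44868 and 54708 bases. FEN1, with 2 exons, GINS3 with 3, POLE4 with 4 and POLE3 and GINS2 with 5 were all higher. POLE with 49, POLA1 with 37 and LIG1 and POLD1 with 27 had negative WT ratios, of which those of POLA1 and POLD1 did not pass. MCM2, with 16 exons and a ratio of 3.10, and RFC4, with 11 and -1.13, departed from that order. Across the 46 genes the WT ratio had a Pearson correlation of -0.566 and a Spearman correlation of -0.534 with log2 exon number, and across 13892 protein-coding genes -0.254 and -0.319. These are descriptions across genes, which share libraries and are not replicates. With K700E the values were -0.514 and -0.483 over the 46 genes and -0.257 and -0.323 over protein-coding genes. Log2 exon length and log2 gene span also went along with the ratio over the 46 genes. Their Pearson correlations were -0.394 and -0.381 with WT and -0.417 and -0.433 with K700E. Over protein-coding genes these were -0.142 and -0.066 with WT and -0.186 and -0.116 with K700E. Exon number was not tested apart from length and span.

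**Figure D4:**
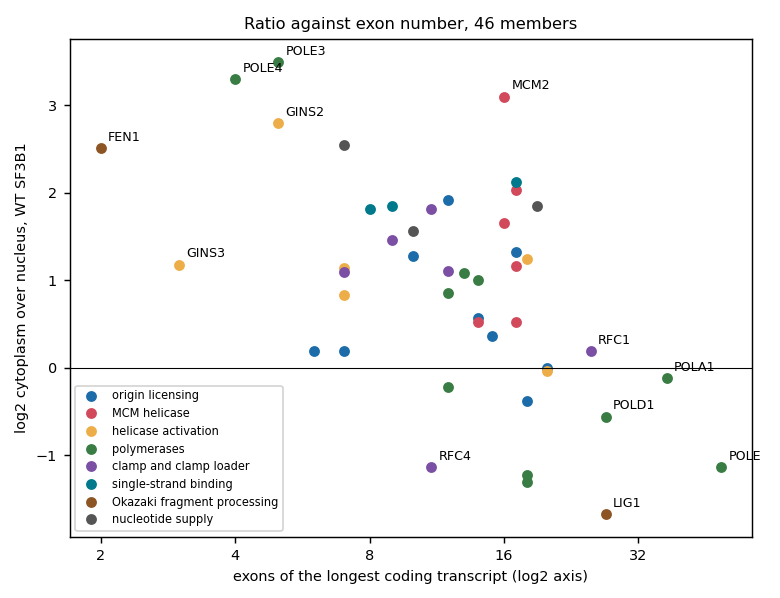
Log2 ratio of cytoplasm over nucleus with WT (vertical) against exons of the longest coding transcript (horizontal, log2 axis) for the 46 genes, coloured by role. Genes with 2 to 5 exons lie above 0, from 1.18 (GINS3) to 3.49 (POLE3), and genes with 25 or more exons reach at most 0.19 (RFC1).

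Of 38 other genes that act in replication or S phase, 37 were tested. With WT 14 were higher in the cytoplasm and 8 lower (median 0.06), where 27.1% and 40.0% of all genes and 35.4% and 29.5% of protein-coding genes passed. With K700E 12 were higher and 11 lower (median 0.10), against 28.1% and 37.9% of all genes and 36.5% and 27.4% of protein-coding genes. The lowest were CHTF18, part of an alternative clamp loader (-3.72 ± 0.48 and -2.96 ± 0.47), and RECQL4, a helicase that acts at initiation (-2.99 ± 0.45 and -1.93 ± 0.44). DCK, which salvages deoxynucleosides, was among the highest (2.20 ± 0.36 and 2.05 ± 0.36).

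Turning to the mutant itself, nuclear levels of replication genes were compared between K700E and WT. No replication gene passed in edgeR, where 0% of all genes passed in either direction, and DESeq2 and limma voom called none of the 46 either. At an unadjusted p under 0.05 there were 1 higher and 4 lower, against 2.66% and 4.15% of all genes, and the smallest adjusted p was 0.659. Those 5 genes became 11 without replicate 1 of the WT nucleus and 8 without replicate 3, and 1 without replicate 2 of the WT nucleus. They became 3 without replicate 1 of the K700E nucleus, of the WT cytoplasm or of the K700E cytoplasm, and 0 without replicate 2 of the K700E nucleus. Estimates were above 0 for 22 genes, against 45.8% of all genes, and groups did not overlap for 2 higher and 2 lower genes, against 3.91% and 4.87%. The median difference over the 46 genes was -0.04 on the log2 scale. POLA1 was the higher gene, with 160, 162 and 190 CPM with WT and 188, 334 and 257 with K700E (0.60 ± 0.21), groups that overlapped at 1 library. TYMS was at 7.11, 10.3 and 5.45 CPM with WT and 4.94, 3.96 and 5.13 with K700E (-0.70 ± 0.29), with all K700E libraries below all WT ones. MCM7, at 467, 664 and 442 CPM against 405, 266 and 382, also separated (-0.58 ± 0.25). The remaining genes were CDT1 (-0.84 ± 0.39) and ORC1 (-0.47 ± 0.22), whose groups overlapped. A p above the threshold does not show that levels were equal: SEs of 0.18 to 0.40 over the 46 genes leave room for moderate differences.

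These nuclear differences ordered the replication genes by GC content. Over the 46 genes the log2 difference between K700E and WT nuclei had a Pearson correlation of -0.752 and a Spearman correlation of -0.706 with the GC content of the longest coding transcript, and over 13892 protein-coding genes -0.649 and -0.704. The GC-rich CDT1 (64.9% GC) and POLD1 (65.0%) stood at -0.84 and -0.69, the GC-poor ORC4 (37.7%) at 0.47. Replicate 2 of the WT nucleus had values that rose with GC, and replicate 2 of the K700E nucleus had values that fell with GC. Without the library of strongest GC trend in each group the nuclear difference was -0.23 for CDT1, -0.30 for TYMS, -0.19 for MCM7, -0.07 for ORC1 and 0.37 for POLA1. Without replicate 2 of the WT nucleus alone that of CDT1 was -0.13.

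**Figure D5:**
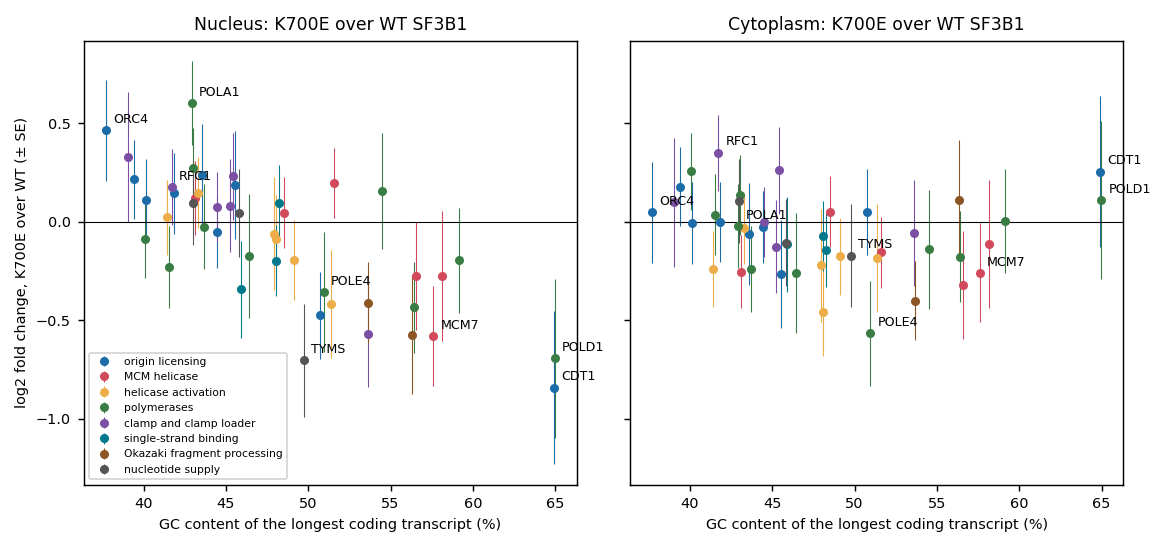
Log2 difference between K700E and WT (vertical, ± SE) against GC content of the longest coding transcript in percent (horizontal) for the 46 genes, in the nucleus (left) and the cytoplasm (right). Nuclear values descend from 0.47 at 37.7% GC (ORC4) to -0.84 at 64.9% (CDT1), and cytoplasmic ones follow GC less closely (Pearson -0.176, Spearman -0.322), with CDT1 at 0.26.

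In the cytoplasm no replication gene passed between K700E and WT either. That again does not show equal levels, with SEs of 0.18 to 0.40 over the 46 genes. In edgeR 0 of 46 passed, where 0.00490% of all genes were higher and 0% lower, and DESeq2 and limma voom called none of the 46. At an unadjusted p under 0.05 there were 0 higher and 1 lower, against 2.60% and 1.95% of all genes, and a fit on the compared libraries alone gave 5 in all. Leaving out 1 library gave 0 to 3 in all. The 3 came without replicate 2 of the WT nucleus or replicate 3 of the K700E cytoplasm, and 2 came without replicate 1 of the WT nucleus or replicate 2 of the K700E nucleus. More of the genes had lower than higher estimates with K700E, 31 against 15, while 49.6% of all genes had higher ones, and the median was -0.07. The groups did not overlap for 2 higher and 10 lower genes, where 6.60% and 6.98% of all genes did the same. POLE4 was the 1 gene under the unadjusted threshold, with 26.4, 34.4 and 34.2 CPM with WT and 18.9, 21.9 and 23.4 with K700E (-0.57 ± 0.27). GINS3 had 55.6, 55.5 and 60.9 CPM with WT against 35.5, 42.1 and 47.6 (-0.46 ± 0.22), and FEN1 235, 200 and 260 against 174, 166 and 187 (-0.40 ± 0.20). MCM6 had 458, 404 and 410 CPM against 318, 378 and 372 (-0.25 ± 0.19). All of these had every K700E library below every WT library. RFC1 went the other way, with every K700E library above every WT one, at 203, 216 and 203 CPM with WT and 312, 261 and 221 with K700E (0.35 ± 0.19). The 5 estimates kept their sign under all settings tried, with a smallest adjusted p of 0.51 among them.

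The shift of the fraction ratio from WT to K700E, which uses the same libraries as the other comparisons, was not called for any replication gene. In edgeR 0 of 46 passed, as did 0% of all genes, and DESeq2 and limma voom called none of the 46. At an unadjusted p under 0.05 there were 0 as well, against 2.28% higher and 1.02% lower of all genes, and the smallest adjusted p was 0.98. Leaving out replicate 1 of the WT nucleus gave 4 genes under that unadjusted threshold, and leaving out any other library gave 0 to 2. The ratio was larger with K700E for 22 genes and smaller for 24, where 53.7% of all genes had a larger one, with a median change of -0.04. The estimates ranked first by p were POLA1 (-0.62 ± 0.30), CDT1 (1.10 ± 0.55), ORC1 (0.52 ± 0.31), LIG1 (0.68 ± 0.43) and MCM6 (-0.37 ± 0.26). For CDT1, ORC1 and LIG1 the values were 0.40, 0.08 and 0.07 without the library of strongest GC trend in each group, and for POLA1 and MCM6 -0.33 and -0.34. Over the 46 genes the change had a Pearson correlation of 0.606 and a Spearman correlation of 0.439 with transcript GC content. Over 13892 protein-coding genes the values were 0.451 and 0.56. Of the genes that passed with only 1 construct, ORC2 changed by -0.12 ± 0.30, ORC5 by -0.15 ± 0.29, MCM3 by -0.35 ± 0.25 and MCM7 by 0.32 ± 0.36, none past the threshold.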

How the data were processed

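RNA of 2 fractions and 2 constructs was analysed in 12 libraries, 3 per group, grouped by the titles in the labels. The authors deposited raw read counts per gene, 1 file per library. Per the submitters' processing notes HISAT2 and DESeq were used, with no version. The sources used here do not name the counting program, its strand setting, the genome build or the annotation. Gene types, coordinates and exon lengths were taken from GENCODE 29 on GRCh38, which holds identifiers with 99.7% of counts. Promoter windows are those of RefSeq on GRCh38.p14.

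Differences were tested on the deposited counts in R 4.3.3 with edgeR 4.0.16 quasi-likelihood tests over all 12 libraries, with 1 term per group, TMM scaling, filterByExpr (minimum count 10, minimum total 15) and Benjamini-Hochberg adjustment over 20394 genes. An adjusted p under 0.05 was called. Errors of fold changes are standard errors. The 5 comparisons were cytoplasm against nucleus with each construct, K700E against WT in each fraction, and the interaction.

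The genes and lists were chosen with earlier results of these data known, so no test was made over the 46 genes. Values per library are given for the genes with the highest and lowest WT ratio of each role, PCNA, genes lower with both constructs, and the 5 genes with the smallest p in each comparison of constructs. Genes that are no members are SF3B1 and the 2 highest and 2 lowest of each further list. Others are named by ratio alone, and a few of these genes are left unreported.

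Alternatives were scaling by library size alone, by upper quartile, by TMM on protein-coding genes or by DESeq2 1.42.0 size factors, the DESeq2 Wald test, voom of limma 3.58.1, no filter or 1 CPM in all libraries, a fit on the compared libraries alone, replicate number as a block, and each library left out. The removal of 4 libraries, the one of strongest GC trend in each group, was chosen after seeing the data.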

Additional observations from a re-analysis of the deposited data

How the results depend on the processing

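Limits are 3 libraries a group, a shared estimate of spread, GC trends in 1 library of each nuclear group and in 5 cytoplasmic libraries, and low nuclear counts of POLE4. The counts of called replication genes depended on scaling in the direction of lower genes: with WT, library size alone gave 10 lower and upper quartile factors 8, against 5. Leaving out 1 library gave 27 to 31 higher and 5 to 6 lower with WT, and 28 to 30 and 5 to 7 with K700E. A filter of 1 CPM in all libraries cut all genes lower to 4074 with WT and 3938 with K700E. The labels do not say whether replicate numbers pair the libraries, and correlations of their departures from group means cannot settle it. Same-numbered libraries had -0.252 to 0.132 between the fractions of a construct and -0.021 to 0.519 between the constructs of a fraction. A replicate block gave 30 higher and 5 lower replication genes with WT, 29 and 6 with K700E, and 0 in the other comparisons.

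Over all genes, K700E against WT in the nucleus gave 0 and 1 genes higher and lower with the DESeq2 Wald test, 10 and 26 without a filter, and 0 to 1 lower when 1 library was left out. In the cytoplasm, where 1 gene that is no replication gene was called higher, DESeq2 gave 11 higher and 2 lower and no filter 50 and 35. There limma voom, the replicate block, the compared libraries alone and the removal of the library of strongest GC trend in each group gave 0 higher, and leaving out 1 library 0 to 2. For the interaction DESeq2 gave 2 higher and 1 lower, no filter 24 and 7, and leaving out 1 library 0 to 1.

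Among the ratios followed through the settings, signs turned only for those that had not passed. Ratios of genes neither called nor given per library were not followed, among them ORC3, ORC4, ORC6, GMNN, POLD1 and POLD3 with WT. With library size alone MCM7 with WT was -0.0007, RFC1 -0.32 with WT and -0.043 with K700E, and CDC45 with K700E -0.22. With upper quartile factors RFC1 with WT was -0.18 and CDC45 with K700E -0.19, with a filter of 1 CPM -0.13 and -0.14, and with TMM on protein-coding genes CDC45 with K700E was -0.0196. CDC45 with WT was 0.032 with limma voom, 0.11 without a filter, 0.031 with the block within construct, 0.32 without the library of strongest GC trend in each group, and -0.20 to 0.41 when 1 library was left out. POLA1 with WT was 0.013 without a filter and -0.12 to 0.0199 when 1 library was left out. The cause was not tested.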

Other observations

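Of 20 regulators of the passage from G1 to S phase, E2F family members and cyclin-dependent kinases among them, 19 were tested. With WT 8 were higher in the cytoplasm and 3 lower (edgeR, adjusted p under 0.05), with a median log2 ratio of 0.47. Of all genes 27.1% and 40.0% passed, and of protein-coding genes, whose median was 0.13, 35.4% and 29.5%. With K700E 7 were higher and 4 lower, with a median of 0.49. The shares were 28.1% and 37.9% of all genes and 36.5% and 27.4% of protein-coding genes, whose median was 0.19. CDC25A, a phosphatase that activates CDK2, had ratios of 2.08 ± 0.28 with WT and 1.94 ± 0.28 with K700E, and CDK2 itself 1.85 ± 0.21 and 1.87 ± 0.21. RBL2, a pocket protein that represses E2F targets, was lower in the cytoplasm at -1.04 ± 0.24 and -1.18 ± 0.24, and E2F3, an activating E2F, at -0.74 ± 0.18 and -0.91 ± 0.18. None of the 19 passed in K700E against WT in the nucleus, in the cytoplasm or in the change of the ratio, and 0 had an unadjusted p under 0.05 in edgeR in any of these. DESeq2 counts were not computed for this list.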
